A study of Homo sapiens with 21 samples.

Results

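The 10 inflammatory cytokine and chemokine genes followed here are IL1A, IL1B, IL6, IL8, IL11, LIF, CXCL1, CXCL2, CXCL3 and CCL20, chosen by symbol from the 23201 gene symbols measured. IL8 is the older name of CXCL8 and is the one listed in the data. To follow epithelial to mesenchymal transition (EMT), RNA-seq was performed on untreated HMLE cells (d0) and after 1, 4, 7, 10, 15 and 20 days of TGFβ (d1 to d20). HMLE is an immortalized cell line from human mammary epithelium. Each of the 7 timepoints had 3 libraries, described as biological triplicates, and all cells were plated at 1 common density. The dose of TGFβ is not given in the sources used here, and no untreated cells were sequenced on the later days, so days of treatment and days in culture cannot be told apart. HMLE is a single cell line, so the other cell types of the breast are not represented.

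IL-1α and IL-1β, encoded by IL1A and IL1B, are alarm cytokines that signal through a shared receptor to NF-κB and induce many other cytokines. IL-6, IL-11 and LIF belong to a family that signals through gp130 (IL6ST) to STAT3. CXCL1, CXCL2, CXCL3 and IL-8 attract neutrophils through CXCR1 and CXCR2, and CCL20 attracts CCR6-bearing lymphocytes and dendritic cells. Epithelial cells make several of these factors under stress, and TGFβ is known to raise IL11 in many cell types.

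CXCL1, CXCL2 and CXCL3 are genes of chromosome 4 with closely related promoters, and they are shown because their levels took different courses in these libraries. The 150 bases before each gene start are given on the strand of the gene, from RefSeq (GRCh38.p14), with the NF-κB consensus match in capitals. The stretches lie at chr4:73869243-73869392 on the plus strand for CXCL1, at chr4:74099196-74099345 on the minus strand for CXCL2 and at chr4:74038690-74038839 on the minus strand for CXCL3.
CXCL1: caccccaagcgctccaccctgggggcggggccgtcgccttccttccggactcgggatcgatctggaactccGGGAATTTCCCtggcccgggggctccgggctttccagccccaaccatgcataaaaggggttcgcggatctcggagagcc
CXCL2: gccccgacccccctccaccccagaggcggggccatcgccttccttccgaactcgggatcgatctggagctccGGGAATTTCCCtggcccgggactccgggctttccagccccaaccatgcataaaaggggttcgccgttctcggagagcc
CXCL3: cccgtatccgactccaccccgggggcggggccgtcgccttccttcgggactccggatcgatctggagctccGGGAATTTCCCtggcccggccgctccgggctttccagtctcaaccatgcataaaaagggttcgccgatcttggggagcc
All 3 stretches held the same 11 bases, GGGAATTTCCC, which match the consensus on both strands, starting 79 bases before the gene start in CXCL1 and CXCL3 and 78 bases before it in CXCL2. Aligned end to end, CXCL1 and CXCL2 were identical at 88.8% of columns, CXCL1 and CXCL3 at 88.1%, and CXCL2 and CXCL3 at 86.3%.

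RefSeq windows from 250 bases before to 50 bases after the gene start were at hand for 9 of the 10 genes, and both strands were searched. IL1A had 2 windows, with a gene counted where any window held the motif, whereas the shares of all promoters count single windows. The NF-κB consensus (GGG, purine, any base, A or T, 2 pyrimidines, CC) was found in 5 of these 9 (CXCL1, CXCL2, CXCL3, IL6 and CCL20). Of all 35116 promoters, 5.91% held it. The matches of CXCL1, CXCL2 and CXCL3 lie in closely related promoters and are not independent. Sites that depart from this pattern were not counted, so a window without a match, such as that of IL8, may still hold a variant site. The AP-1 motif TGANTCA was found in 3 of 9 (IL1A, IL8 and IL11), against 7.71% of all promoters. TATAAA was found in 3 of 9 (IL1A, in 1 of its 2 windows, IL8 and CCL20), against 11.5%. Relative to the gene start, it began at -239 in IL1A, -31 in IL8 and -29 in CCL20. Of 2 SMAD motifs, CAGACA was found in IL6 alone, against 16.9%, and GTCTAGAC in none, against 0.202%. These matches describe letters in the windows only, and no binding was measured.

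The libraries held between 18847917 and 22667754 reads, and the floor was set at 3 reads per library, a limit for counting error alone. One d7 library, the third of the d7 columns, stood apart: it differed from the other two by a root mean square of 0.472 and 0.457 on the log2 scale, whereas those differed by 0.223 and the 18 pairs of the other timepoints by 0.214 to 0.243. It was closest to the d4 mean, and the other 20 libraries were closest to their own timepoint. Results on d7 are therefore given with and without it for the cytokine genes that passed the filter. Other d7 values include it unless stated, and for those genes it was checked whether a d7 call was kept. The 9 TGFβ response genes examined (FN1, CDH2, ZEB1 and PMEPA1 among them) rose on every treated day, with medians of up to 4.21 on the log2 scale. Among all genes tested, 3.38% rose on all 6 days. All 10 basal epithelial markers passed the filter, of which 6 rose and 4 fell on at least 1 day (LAMA3 among the former, EPCAM among the latter, and KRT17 among both). The shares of all genes tested were 16.5% and 15.4%. PTPRC and CD3E had at most 1 read in any library and MS4A1 had 0 reads in all 21. The summed value of the 10 leukocyte and endothelial markers lay between 484 and 508 on d0 and between 395 and 882 on the treated days, and most of it was CD68 (344 to 840 reads per library). Only 4 of these markers passed the filter, of which CD68 rose on 2 days and CD14 and PECAM1 fell on all 6. Of the 41 calls on d7 among the listed genes other than the 10 cytokine genes, 39 were kept without the third d7 library, the exceptions being IL1RN and ZC3H12A.

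Values are normalized read counts, that is, reads divided by 1 size factor per library. Changes are differences of log2(value + 1) from d0, with the standard error (SE) of a limma fit over all 21 libraries, and each adjusted p is the Benjamini-Hochberg value over 13343 genes whose mean reached 10. A gene is said to have risen or fallen where the adjusted p was under 0.05 and the change was at least 2-fold. The 6 treated days share the same d0 libraries. In RNA from whole cultures, fewer expressing cells and less RNA per cell cannot be told apart.

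Of the 10 genes, 9 passed the filter, and 7 of these 9 rose on at least 1 day while 0 fell on any day, against 16.5% of all genes tested that rose and 15.4% that fell on at least 1 day. IL1A, IL11 and CXCL1 rose on all 6 days, which 3.38% of all genes tested did. At d1, 4 of 9 rose, against 6.47% of all genes. At d4, 5 of 9 rose, against 9.68%. At d7, 4 of 9 rose, with or without the library that stood apart, against 8.79%. At d10, 3 of 9 rose, against 6.94%. At d15, 5 of 9 rose, against 11.7%, and on d20, 5 of 9 rose, against 7.51%. The shares of all genes that fell were 3.87% on d1, 5.03% on d4, 2.93% on d7, 7.34% on d10, 8.66% on d15 and 4.72% on d20. The median change of the 9 genes was 0.83, 1.37, 0.66, 0.79, 1.05 and 1.42 on the log2 scale from d1 to d20, while that of all genes lay between 0.00 and 0.03.

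**Figure D1:**
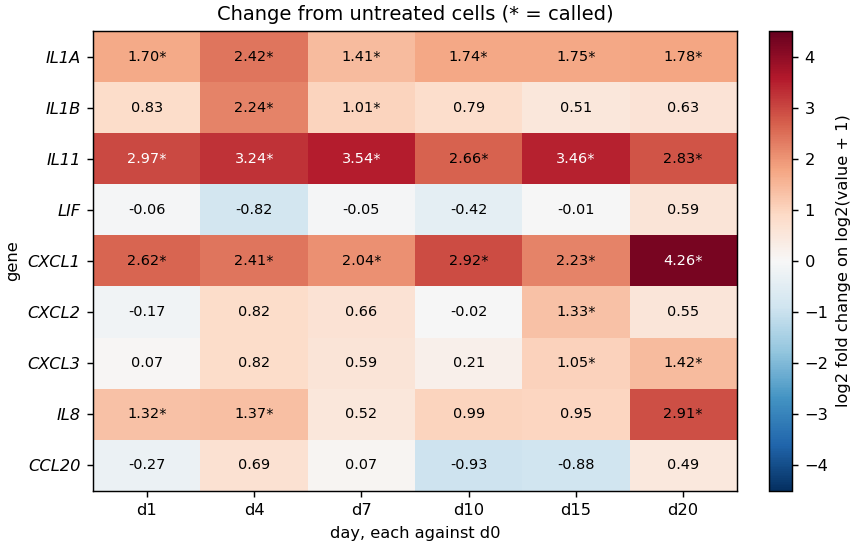
Log2 fold change of 9 cytokine and chemokine genes (rows) on each treated day against d0 (columns), with 3 libraries per timepoint. Asterisks mark an adjusted p under 0.05 with at least a 2-fold change. IL1A, IL11 and CXCL1 are marked on all 6 days, and LIF and CCL20 on none.

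In 5 genes, IL1A, IL1B, IL8, IL11 and CXCL1, every one of the 18 treated libraries lay above every d0 library, which was so for 14.6% of all genes tested. The other 4 genes overlapped with d0 on at least 2 days.

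Among the IL-1 genes, IL1A was the most abundant of the 10 genes at every timepoint. Its normalized counts on d0 were 1404, 1146 and 1324. They were 4056, 4293 and 4169 on d1, and 6508, 7027 and 7128 on d4, the highest day. At d7 they were 4603, 4307 and 2006. The third d7 library was lowest, yet above all d0 libraries. At d10 the counts were 4213, 4483 and 4234, on d15 4210, 4332 and 4436, and on d20 4884, 4355 and 4081. From d10 to d20 the libraries of neighbouring days overlapped, while d4 stood above all other days. The log2 fold change against d0 was 1.70 on d1, 2.42 on d4 (SE 0.18, adjusted p = 1.1e-10), 1.41 on d7, 1.74 on d10, 1.75 on d15 and 1.78 on d20. Without the third d7 library, the d7 change was 1.79, with an SE of 0.056. The fit shares 1 estimate of the spread over all timepoints, so that library also enters the SE and adjusted p of the other days.

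IL1A accounted for 71.2% to 87.1% of the summed normalized count of the 10 genes in each library, and the 71.2% was that of the third d7 library. Per kilobase of the longest coding transcript, IL1A stood at 608 on d0, followed by IL1B at 59.9, CCL20 at 45.9, LIF at 25.4, CXCL2 at 22.3, CXCL3 at 21.7, CXCL1 at 18.7, IL11 at 10.5 and IL8 at 7.08. At d20 the order per kilobase was IL1A at 2091, CXCL1 at 367, IL1B at 95.3, IL11 at 78.5, CCL20 at 63.9, CXCL3 at 59.0, IL8 at 57.3, LIF at 38.3 and CXCL2 at 32.8. CXCL1 thus moved from seventh to the second place.

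IL1B, the form that is cleaved by caspase-1 before it acts, had a sharper course. Its normalized counts were 101, 97.5 and 94.0 on d0, and 162, 167 and 196 on d1. They reached 487, 472 and 441 on d4, above all other libraries. They were 259, 220 and 135 on d7, 176, 188 and 149 on d10, 125, 142 and 151 on d15, and 204, 116 and 147 on d20. The treated days other than d4 each overlapped with the next in the order of means. IL1B rose on d4, by 2.24 (SE 0.19, adjusted p = 6.1e-10), and on d7, by 1.01 (adjusted p = 6.6e-05). The change was 0.83 on d1, 0.79 on d10, 0.51 on d15 and 0.63 on d20, each under 2-fold with an adjusted p between 0.000628 and 0.0177. The d7 call stood at the fold threshold: the change was 1.28 without the third d7 library, but 0.81 without the first d7 library, 0.93 without the second d7 library, 0.98 without the third d0 library, 0.95 with a pseudocount of 10, 0.82 after rescaling to the same total and 0.91 after quantile normalization, each under 2-fold.

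**Figure D2:**
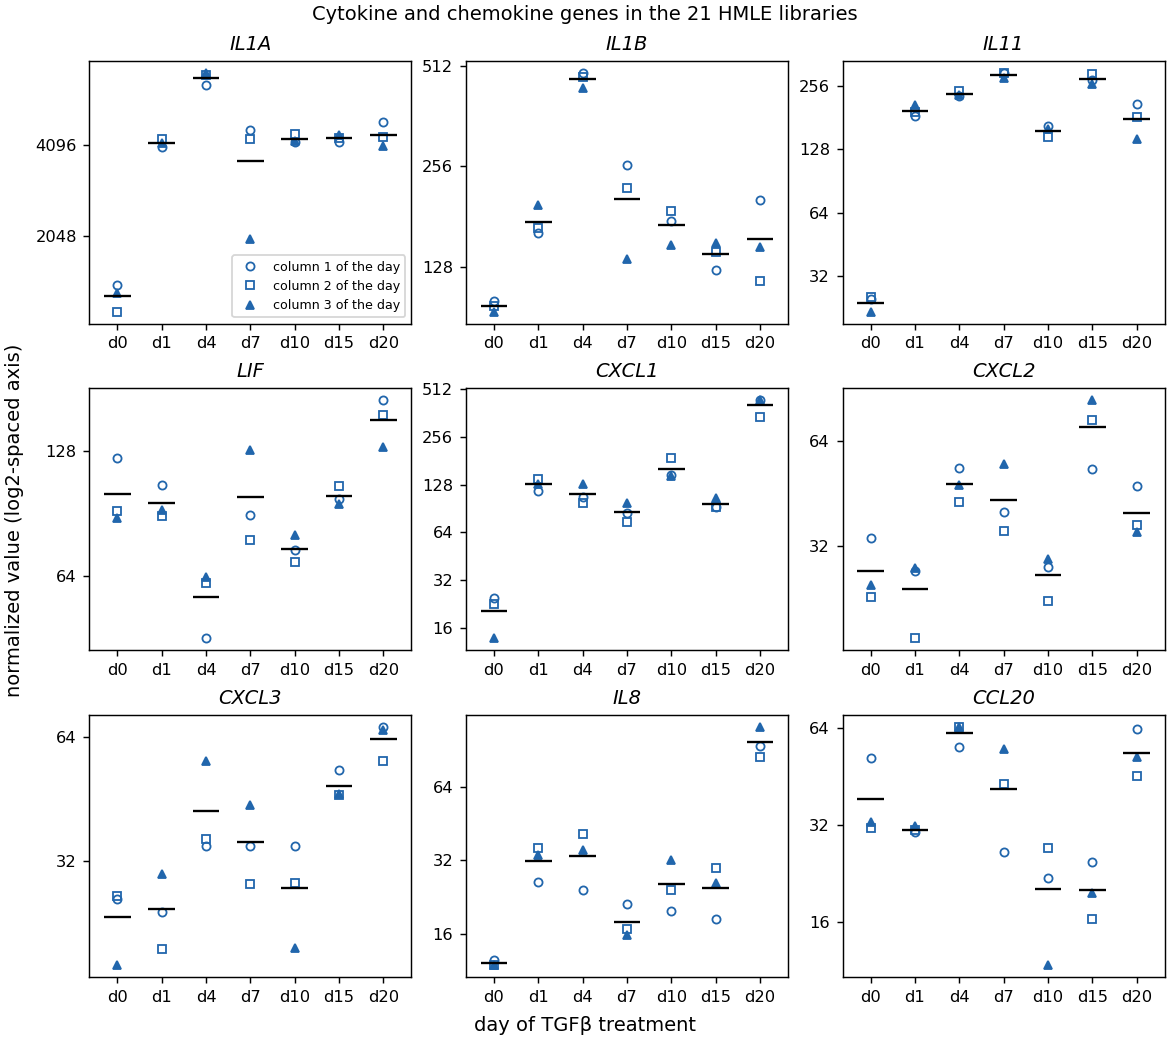
Normalized count (vertical axis, log2-spaced and scaled to each gene) of 9 genes in the 21 libraries by day of TGFβ treatment (horizontal axis). Each symbol is 1 library, its shape giving only the column order within a day, and bars are means of 3 libraries. IL1A and IL1B are highest on d4, whereas CXCL1 and IL8 are highest on d20.

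From day to day, IL1B was the 1 gene of the 9 that changed between d1 and d4 (log2 1.41, adjusted p = 1.2e-06), where 6.17% of all genes changed. Between d4 and d7, IL1A fell by 1.01 and IL1B fell by 1.24 on the log2 scale, against 3.78% of all genes changed. Without the third d7 library neither reached 2-fold: IL1A fell by 0.63 (adjusted p = 1.7e-12) and IL1B fell by 0.96 (adjusted p = 1.3e-07).

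The IL-1 receptors and the inhibitors of the pathway were measured in the same libraries. IL1R1, the signalling receptor, had a mean of 192 ± 13.4 (SD, n = 3) on d0 and rose on d7 (log2 1.08) and d20 (1.04). IL1RAP, its partner chain, was expressed at 1076 ± 73.3 on d0 and changed by 0.16 to 0.48, under 2-fold on each day. IL1RN, which encodes the antagonist that competes for IL1R1, fell on all 6 days. On d7, however, the change was -0.87, under 2-fold, without the third d7 library. Values are per gene, so forms of the antagonist cannot be told apart. Its normalized counts on d0 were 305, 284 and 309. They were 17.9, 19.4 and 23.5 on d10, 29.6, 17.2 and 21.8 on d15, and 32.9, 24.2 and 24.5 on d20. The log2 fold change was -1.68 on d1, -1.73 on d4, -1.30 on d7, -3.83 on d10 (adjusted p = 2.1e-11), -3.69 on d15 and -3.43 on d20. The ratio of IL1A to IL1RN normalized counts was 4.31 ± 0.284 (SD, n = 3) on d0, 44.9 ± 2.79 on d1, 77.2 ± 3.96 on d4, 28.4 ± 3.24 on d7, 215 ± 30.4 on d10, 199 ± 55.0 on d15 and 165 ± 15.7 on d20. These ratios are not per length, so only their course over days can be read. The third d7 library had a ratio of 30.4, close to the 24.6 and 30.2 of the other two.

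IL1R2, the decoy receptor, was low and uneven. Its mean was 5.07 on d0, 31.6 on d1, 14.7 on d4, 7.29 on d7, 25.6 on d10 and 20.2 on d20, and it rose on d1, d4, d10 and d20. At d15 it had at most 2 reads in any library, which is at the floor, and no fold is given. SIGIRR, an inhibitory member of the receptor family, fell on d7 (-1.83) and d20 (-1.13). Of the 10 genes listed for IL-1 processing and control, all tested, these 3 were the ones that changed on any day. Among all genes, 16.5% rose and 15.4% fell on at least 1 day. CASP1, CASP4, GSDMD, MYD88, IRAK1, IRAK4 and TRAF6 did not pass both thresholds on any day.

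In the gp130 family, IL11 rose and stayed up and IL6 was at the floor. LIF changed from d0 by less than 2-fold on every day, although d20 exceeded d4 by 1.41 (log2). IL11 normalized counts were 24.9, 25.4 and 21.8 on d0, and 185, 193 and 207 on d1. They were 229, 242 and 232 on d4, 294, 295 and 280 on d7, 165, 147 and 159 on d10, 272, 290 and 262 on d15, and 211, 182 and 144 on d20. No treated library overlapped with d0, d7 and d15 were highest and overlapped each other, and d10 was the lowest treated day, overlapping with d20. The log2 fold change was 2.97 on d1, 3.24 on d4, 3.54 on d7 (SE 0.11, adjusted p = 2.8e-17), 2.66 on d10, 3.46 on d15 and 2.83 on d20. Without the third d7 library the d7 change was 3.56. IL11 had the smallest SE of the 9 genes with all libraries. Without the third d7 library, however, the SE of the d7 change was 0.056 for IL1A and 0.12 for IL11.

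IL6 was listed at 0 to 2 reads in every library, 14 reads over all 21, so it was at the floor in every library and no fold is given. Its exons overlap those of STEAP1B and AC073072.1 on the opposite strand.

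LIF normalized counts were 123, 91.6 and 88.1 on d0, and 106, 89.2 and 92.3 on d1. They were 45.2, 61.4 and 63.6 on d4, the lowest day, and 89.7, 78.2 and 128 on d7. They were 73.6, 69.0 and 80.2 on d10, 97.9, 105 and 95.3 on d15, and 170, 156 and 130 on d20, the highest day. At d20 all 3 libraries lay above d0, while those of d4 and d10 lay below it and d1, d7 and d15 overlapped with it. Its change was -0.82 on d4 (SE 0.17, adjusted p = 0.000191), -0.42 on d10 (adjusted p = 0.0319) and 0.59 on d20 (adjusted p = 0.00434), each under 2-fold. LIF shares exon sequence with the antisense gene LIF-AS1 and with AC004264.1 on the opposite strand, and whether reads were counted by strand is not stated.

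Among the receptors of this family, LIFR rose on 1 day and IL6R fell on 2 days. IL6ST, the common gp130 chain, had a mean of 2460 ± 130 (SD, n = 3) on d0 and changed by 0.14 to 0.52, under 2-fold on each day. IL11RA, the specific chain for IL-11, stood at 118 ± 12.4 on d0 and changed by -0.56 to 0.36. OSMR changed by -0.14 to 0.39. LIFR changed past both thresholds on d15 alone (log2 1.20, adjusted p = 1.7e-06). IL6R, the specific chain for IL-6, fell on d4 (-1.34, adjusted p = 1.8e-14) and d10 (-1.02).

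Of the 11 genes listed for STAT3 signalling, all tested, 4 rose and 1 fell on at least 1 day. Among all genes the shares were 16.5% and 15.4%. SOCS3 and SOCS1, feedback inhibitors of JAK-STAT signalling, rose on all 6 days, SOCS3 by just over 2-fold on d20 (log2 1.01). SOCS3 was highest on d15, where its normalized counts were 581, 535 and 578 against 52.5, 45.0 and 27.7 on d0 (log2 3.77, adjusted p = 2.3e-14). SOCS1 changed most on d1 (2.64). PIM1, a kinase and STAT3 target, rose on 4 days, most on d4 (1.92), and CEBPB, an inflammatory transcription factor, on 3, most on d15 (1.45). CEBPD, a transcription factor of the acute phase response, fell on 4 days, most on d10 (-1.76).

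Among the neutrophil chemokines, CXCL1 rose on all days and IL8 on 3 days, and both were highest on d20. CXCL1 normalized counts were 24.9, 22.9 and 13.8 on d0, and 117, 139 and 129 on d1. They were 107, 98.4 and 128 on d4, 84.4, 74.0 and 98.7 on d7, 146, 187 and 145 on d10, and 92.8, 93.2 and 106 on d15. At d20 they were 436, 339 and 433. The 3 d20 libraries lay above all others, and no treated library overlapped with d0. The log2 fold change was 2.62 on d1, 2.41 on d4, 2.04 on d7, 2.92 on d10, 2.23 on d15 and 4.26 on d20 (SE 0.17, adjusted p = 4.7e-15), which is 19.1-fold on this scale. Without the third d7 library, the d7 changes were 1.93 for CXCL1, 0.60 for IL8, 0.48 for CXCL2, 0.43 for CXCL3, -0.16 for CCL20 and -0.25 for LIF.

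IL8 normalized counts were 12.5, 11.9 and 11.9 on d0, and 26.1, 35.9 and 33.7 on d1. They were 24.2, 40.9 and 35.2 on d4, 21.1, 16.7 and 15.8 on d7, 19.9, 24.3 and 32.3 on d10, 18.4, 29.9 and 25.9 on d15, and 94.3, 85.2 and 114 on d20. All treated libraries lay above d0, and the d20 libraries above all others, while the days from d1 to d15 overlapped with their neighbours in the order of means. IL8 rose on d1 (log2 1.32, adjusted p = 3.8e-05), d4 (1.37, adjusted p = 1.6e-05) and d20 (2.91, SE 0.23, adjusted p = 3.3e-10). With a pseudocount of 10 the changes on d1 and d4 were 0.92 and 0.96, under 2-fold. The changes of 0.99 on d10 and 0.95 on d15 lay just under 2-fold, and edgeR and DESeq2 on the recovered reads put both just over it (1.01 to 1.07).

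CXCL2 and CXCL3, which share the promoter site with CXCL1, rose on fewer days. CXCL2 normalized counts were 33.8, 22.9 and 24.7 on d0, and 27.2, 17.4 and 27.8 on d1. They were 53.6, 42.8 and 48.0 on d4, 40.1, 35.4 and 54.9 on d7, 27.9, 22.4 and 29.3 on d10, 53.0, 73.3 and 83.9 on d15, and 47.7, 36.8 and 35.2 on d20. All libraries of d4, d7, d15 and d20 lay above d0, and those of d1 and d10 overlapped with it. CXCL2 rose on d15 alone (log2 1.33, SE 0.22, adjusted p = 1.4e-05), and the change was 0.82 on d4, 0.66 on d7 and 0.55 on d20.

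CXCL3 normalized counts were 25.8, 26.3 and 17.8 on d0, and 24.1, 19.5 and 29.8 on d1. They were 34.7, 36.0 and 55.8 on d4, 34.8, 28.1 and 43.7 on d7, 34.8, 28.2 and 19.6 on d10, 53.0, 46.1 and 46.6 on d15, and 67.8, 55.8 and 66.6 on d20. As with CXCL2, the libraries of d4, d7, d15 and d20 lay above d0, and those of d1 and d10 overlapped with it. CXCL3 rose on d15 (log2 1.05, adjusted p = 0.000366) and d20 (1.42, SE 0.23, adjusted p = 1.8e-05). The d15 call lay at the threshold and was lost with a pseudocount of 10 (0.82), after rescaling (0.89), after quantile normalization (0.83), without the third d0 library (0.87) and without the first d15 library (0.98).

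The ratio of CXCL1 to CXCL2 normalized counts was 0.766 ± 0.221 (SD, n = 3) on d0, 5.65 ± 2.04 on d1, 2.32 ± 0.338 on d4, 2.00 ± 0.173 on d7, 6.18 ± 1.89 on d10, 1.43 ± 0.280 on d15 and 10.2 ± 1.80 on d20. The ratio on d0 was at most 1.00 in any library and the lowest on d20 was 9.13. These transcripts share short stretches: of the 50-base windows of CXCL1, 5.73% also occurred in CXCL2 and 0.573% in CXCL3, and 4.62% of those of CXCL2 occurred in CXCL3. With 75-base windows these shares were 0.293%, 0% and 2.01%, and with 100-base windows 0% for every pair. None of the windows occurred in IL8. Whether reads could be shared thus depends on their length, which is not given in the sources used here, nor is how reads matching several genes were counted.

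CXCR2, a receptor for all 4 of these chemokines, fell on all 6 days. Its normalized counts were 48.1, 48.4 and 54.4 on d0, 13.6, 14.4 and 10.9 on d1, and 5.26, 4.87 and 5.88 on d4. On d7, d10, d15 and d20 the means were 10.1, 9.47, 4.55 and 11.7, and no treated library reached d0. The change was -1.88 (log2) on d1, -3.02 on d4 and -3.21 on d15 (adjusted p = 4.4e-10). CXCR1, the IL-8 receptor, had a mean of 12.1 ± 0.962 (SD, n = 3) on d0 and rose to 44.0 ± 6.50 on d1 (log2 1.77). It had at most 2 reads in any library on d7 and at most 1 read on d15, at the floor, whereas its mean was 14.4 on d10.

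CCL20 normalized counts were 51.6, 31.4 and 32.6 on d0, and 30.3, 30.8 and 31.8 on d1. They were 55.7, 64.3 and 64.6 on d4, 26.4, 42.8 and 54.9 on d7, 21.9, 27.2 and 11.7 on d10, 24.5, 16.3 and 19.7 on d15, and 63.6, 45.3 and 51.9 on d20. The libraries of d4 lay above d0 and those of d10 and d15 below it, while d1, d7 and d20 overlapped with it. Its log2 change was 0.69 on d4 (SE 0.27, adjusted p = 0.0282), -0.93 on d10 (adjusted p = 0.00492) and -0.88 on d15 (adjusted p = 0.00613), each under 2-fold. After rescaling to the same total the changes on d10 and d15 were -1.15 and -1.04, past 2-fold. CCR6, its receptor, was under the filter, with values from 2.93 to 13.6 over the 21 libraries.

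Between d7 and d10, CCL20 fell by 1.01 on the log2 scale (adjusted p = 0.00252), the 1 gene of the 9 that changed, against 12.7% of all genes; without the third d7 library it fell by 0.78 and did not reach 2-fold. Between d10 and d15, CXCL2 was the 1 gene that changed (log2 1.35, adjusted p = 1.1e-05), against 22.2% of all genes, and it did not pass after quantile normalization. In both of these steps 1 of 9 was no larger a share than that of all genes. Between d15 and d20, IL8 (1.96, adjusted p = 1.1e-07), CXCL1 (2.03, adjusted p = 1.1e-09) and CCL20 (1.37, adjusted p = 0.000127) rose, 3 of 9, against 15% of all genes. Beside these d15 values, 9 of the 10 proliferation genes fell on d15 (median -1.73), against 8.66% of all genes. The summed value of the 10 was 19105 to 19543 on d15, 56024 to 58061 on d0 and 55604 to 57745 on d20. The part of cell growth in these steps was not tested.

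The day with the highest mean was d20 for 4 genes (IL8, LIF, CXCL1 and CXCL3), d4 for 3 (IL1A, IL1B and CCL20), d15 for CXCL2 and d7 for IL11. The lowest mean was on d0 for 6 of the 9. How often each day was highest or lowest among all genes was not computed, so these counts are a description. Over the 21 libraries, CXCL1 and IL8 were the most alike (Pearson r = 0.87), followed by IL1A with IL11 (0.83), IL1A with IL1B (0.77), IL1A with CXCL1 (0.70) and CXCL2 with CXCL3 (0.68). LIF and IL1B ran in opposite directions (-0.65). The 21 points fall into 7 timepoints and share library normalization, so these r values are a description.

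**Figure D3:**
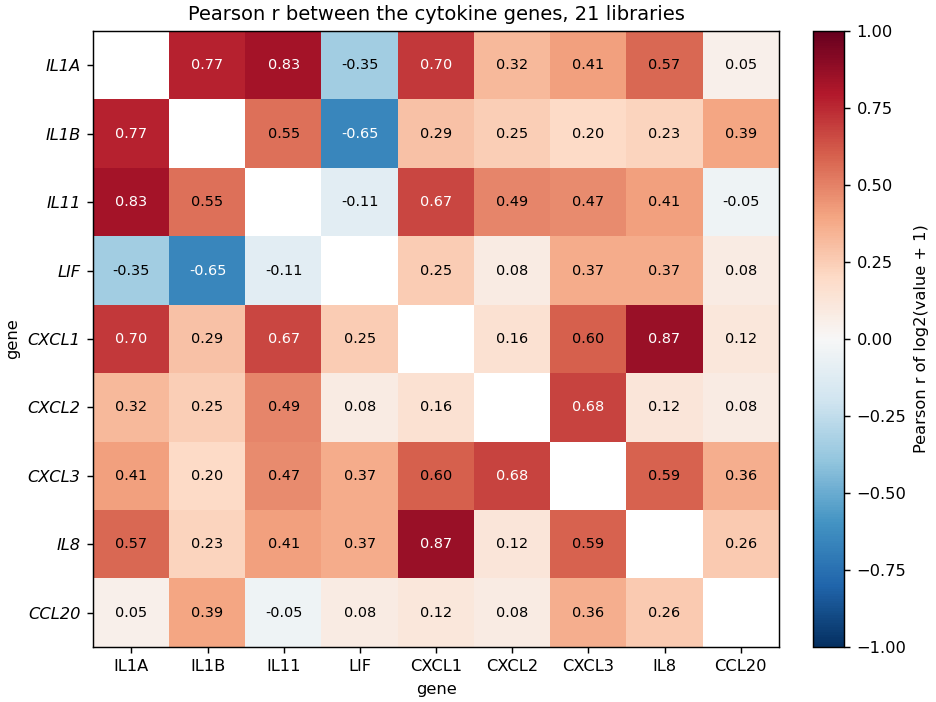
Pearson r of log2(value + 1) between each pair of 9 genes over the 21 libraries, with genes on both axes. CXCL1 and IL8 reach 0.87 and IL1A and IL11 reach 0.83, while LIF and IL1B stand at -0.65.

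Among all genes tested, the 5 whose values ran most like IL1A over the 21 libraries were MCL1 (r = 0.976), MAN2A1 (0.958), ITPRIP (0.957), MAFF (0.956) and BCL2L1 (0.955). MCL1 and BCL2L1 encode anti-apoptotic proteins and MAFF a small Maf transcription factor. MCL1 went from a mean of 7020 on d0 to 12960 on d4. For IL1B they were NUAK2 (0.918), FEM1C (0.914), DYNC1LI2 (0.907), RBM22 (0.905) and C1GALT1 (0.904). Without the third d7 library the order within both groups changed: MAN2A1 (0.980) and BCL2L1 (0.975) stood above MCL1 (0.974), and RBM22 (0.930) above NUAK2 (0.925).

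Of 17 other cytokine genes listed, 14 passed the filter, of which 8 rose and 3 fell on at least 1 day, as 11 that changed in all. Among all genes the shares that rose and fell were 16.5% and 15.4%. IL32, a cytokine without a mouse counterpart, rose on all 6 days, to a mean of 906 ± 24.0 (SD, n = 3) on d20 from 54.9 ± 10.8 on d0 (log2 4.04, adjusted p = 1.1e-16). CSF2 and CSF3, the growth factors of myeloid cells, rose on 5 days each. CSF2 normalized counts were 5.34, 2.54 and 2.97 on d0, 97.5, 123 and 89.0 on d10, 6.12, 3.62 and 3.11 on d15, and 123, 80.0 and 88.1 on d20. CSF3 had means of 33.8 on d0, 481 on d1, 305 on d4, 57.8 on d7, 764 on d10, 82.8 on d15 and 364 on d20. EBI3, a subunit of the IL-27 and IL-35 cytokines, rose on 5 days, most on d15 (2.79) and just past 2-fold on d1 (1.02). TNF also rose on 5 days, most on d4 (2.39) and at the fold threshold on d1 (1.00). The others that rose were TNFSF10 (3 days, most on d7, 2.28), IL15 (d4, 1.47) and CSF1 (d15, 1.47). Those that fell were TSLP (most on d10, -1.99), IL18 (d10, -1.43) and TNFSF15 (d7, -1.11). The genes from TNF to TNFSF15 were named after their values were seen, to complete the count.

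Of 11 other chemokine genes listed, 5 passed the filter, and 0 rose and 3 fell on at least 1 day, against 16.5% and 15.4% of all genes. The remaining chemokines of these 5, CCL5 and CCL28, did not pass both thresholds on any day. CCL5 stood at 0.97 on d4 and 0.93 on d7. CXCL14, a chemokine of resting epithelia, fell on 5 days, from a mean of 273 on d0 to 5.23 on d10 (log2 -5.48, adjusted p = 5.3e-09). Its d7 normalized counts were 413, 426 and 41.9, the last in the library that stood apart. Its d7 change of -0.48 thus rests on that library, since the first and second d7 libraries lay above the d0 mean. CXCL16 fell on all 6 days, most on d10 (-2.44), and CX3CL1 on 3 days, most on d10 (-2.62).

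Of 20 genes listed for NF-κB signalling, all tested, 7 rose on at least 1 day and 1, BIRC3, fell (d7, -1.07). Among all genes the shares were 16.5% and 15.4%. The number that rose was 1 on d1, 6 on d4, 3 on d7, 1 on d10, 5 on d15 and 5 on d20. The shares of all genes that rose on these days were 6.47%, 9.68%, 8.79%, 6.94%, 11.7% and 7.51%. On d1 and d10, 1 of 20 was thus no larger a share than that of all genes. The list's median was 0.50 on d4 and 0.57 on d15. PTGS2, the inducible cyclooxygenase, rose on all 6 days, most on d7 (2.41). TNFAIP3, an inhibitor of NF-κB, and ICAM1, an adhesion molecule, rose on 4 days each, on d4, d7, d15 and d20, with TNFAIP3 at 1.79 and ICAM1 at 1.60 on d4. RELB, a subunit, rose on 3 days, most on d15 (1.51). SOD2 (d15, 1.41), TNIP1 (most on d4, 1.45) and BCL3 (d4, 1.00) completed the 7.

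Many cytokine mRNAs are short-lived because proteins that bind AU-rich elements promote their decay. Listed and tested were 8 genes that regulate mRNA decay, not all of them through AU-rich elements or in the same direction. On at least 1 day, 4 rose and 1 fell, against 16.5% and 15.4% of all genes. ZFP36L1 and ZFP36L2, which promote decay, rose on all 6 days, by 3.23 on d4 (adjusted p = 1.9e-17) and 2.49 on d15 at most. ZFP36 rose on 3 days, most on d15 (1.75), and ZC3H12A (Regnase-1), an endonuclease that degrades cytokine mRNAs, on 3 (d4, d7 and d20), most on d4 (1.32), its d7 change being just under 2-fold without the third d7 library. HNRNPD, an AU-rich element binding protein, fell on d4 (-1.33) and d15 (-1.96).

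**Figure D4:**
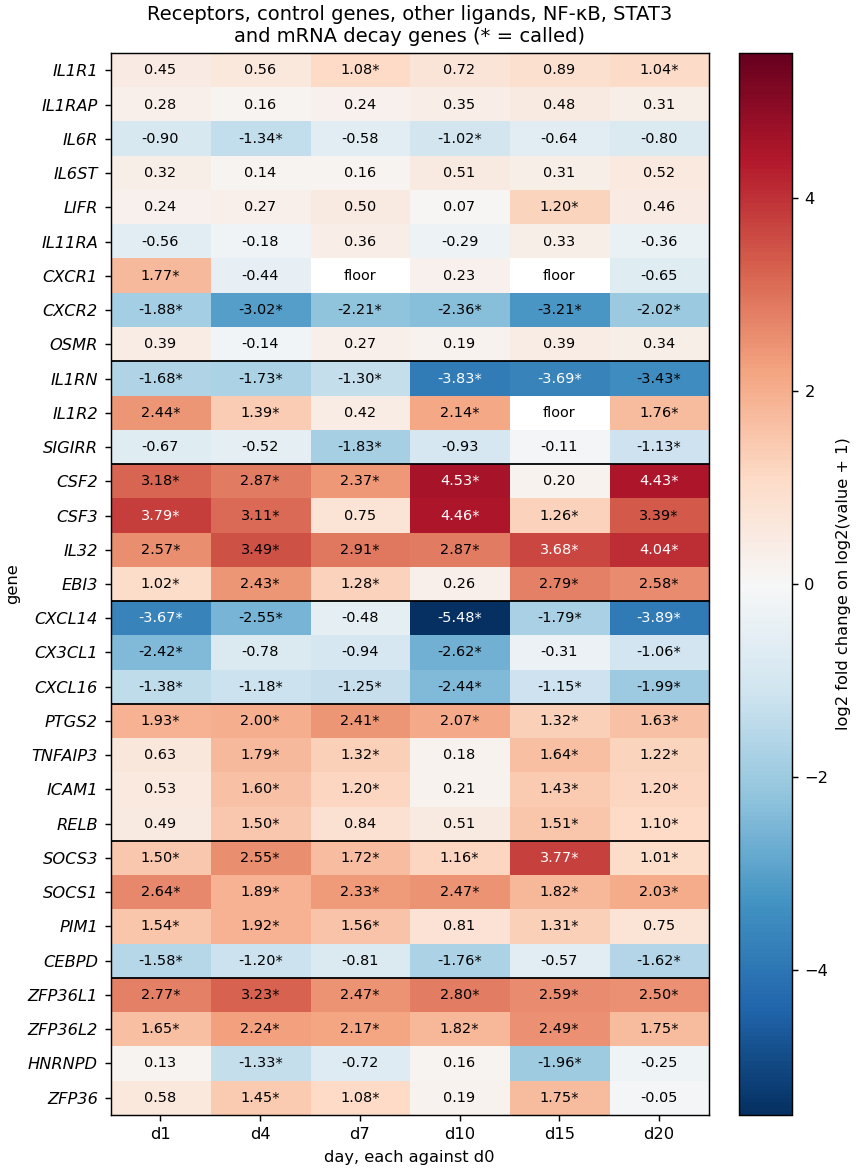
Log2 fold change on each treated day against d0 (columns) of receptors, IL-1 control genes, other cytokines, other chemokines, NF-κB, STAT3 and mRNA decay genes (rows, lists separated by lines), 3 libraries per timepoint. Asterisks mark an adjusted p under 0.05 with at least a 2-fold change, and "floor" marks a day on which all 3 libraries had at most 3 reads. CXCR2 and IL1RN are marked lower on all 6 days (IL1RN on d7 only with the third d7 library), and IL32, PTGS2, SOCS1, SOCS3, ZFP36L1 and ZFP36L2 higher on all 6. SOCS3 stands at the fold threshold on d20 (1.01).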

How the data were processed

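Per the submitters' processing notes, STAR 2.7, Salmon 1.4 and hg19 were used, with no role or order given, so coordinates here come from RefSeq (GRCh38.p14) alone and transcript lengths and windows from GENCODE. The authors deposited 1 normalized signal per gene and library, which is the read count divided by 1 size factor per library and rounded to 2 decimals. Dividing by the value of 1 read gave whole reads in 100% of cases checked (tolerance 0.02 reads), and the factors matched a median-of-ratios calculation (ratio 0.999662 to 1.00027). The columns name the day but no replicate, so libraries were not paired.

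All 7 timepoints entered one linear model per gene (limma 3.58.1, run under R 4.3.3, with an empirical Bayes trend) on log2(value + 1), for genes with a mean of at least 10, which is also the source of each SE. Fold changes on this scale understate those of low genes. The script was tested on simulated counts. Alternatives were DESeq2 1.42.0 and the quasi-likelihood test of edgeR 4.0.16, both on the whole reads, a pseudocount of 10, no filter (19546 genes), rescaling to the same total, quantile normalization, the 2 groups alone, no minimum fold and each library left out. For the other listed genes, only the effect of leaving out the third d7 library on their d7 calls was examined. The members, the gene lists and the rule for naming genes were chosen with earlier results of these data known. All members and receptors are named, and at most 4 genes of each other list, those with the largest change among genes called, plus the 5 genes most like each of the 2 members with most reads. Outside this rule, genes that complete a list's count (CEBPB, ZC3H12A, SOD2, TNIP1, BCL3, BIRC3, CCL5, CCL28 and the 7 IL-1 control genes that did not pass, among others) are named, chosen after their values were seen. Promoters were aligned with Biopython 1.88 and figures drawn with matplotlib 3.10.9 in Python 3.11.15. Identity of the proteins was not analysed here. One gene of the TGFβ response list is not reported here.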

Additional observations from a re-analysis of the deposited data

Results flagged for a closer look

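For 2 genes, the changes from d0 went in opposite directions on different days by adjusted p alone, without the 2-fold minimum, and the direct comparison of the treated days with the highest and lowest mean of log2(value + 1) differed. By adjusted p alone, 59.8% to 76.5% of all genes passed on each day, and 28.7% of all genes passed in both directions. These 2 of the 9 genes tested were thus no larger a share than that of all genes. The reading by adjusted p alone was chosen after the values were seen, since with the 2-fold minimum no gene of the 10 rose on one day and fell on another. LIF was lower than d0 on d4 and d10 and higher on d20, and d20 exceeded d4 by 1.41 on the log2 scale (SE 0.17, limma adjusted p = 2.8e-07). CCL20 was higher than d0 on d4 and lower on d10 and d15, and d4 exceeded d10 by 1.63 (SE 0.27, limma adjusted p = 1.9e-05). In both genes the days compared were picked by their values, and the adjusted p does not correct for that choice.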

How the results depend on the processing

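No paired analysis was possible because a column names its day alone, without the replicate. Of the counts of the 9 genes that rose, fell or changed, 200 values under the alternatives stayed within 1.5 times the value given and 38 did not, and no alternative moved the number that rose on d1 or d15 beyond that. For the changes of single genes from d0, 650 values kept their direction and side of the thresholds, 19 passed them anew, 13 lost them and 20 turned direction. After rescaling to the same total, the median change of all genes from d0 stood at -0.14 (d15) to -0.20 (d10 and d20) in place of 0.00 to 0.03, and changes are read relative to it.

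With no minimum fold change, the number higher was 8 on d4, 7 on d7, 5 on d10 and 8 on d20, the number lower 1 on d4 (LIF), 2 on d10 (LIF and CCL20) and 1 on d15 (CCL20), and the number changed 7 from d1 to d4, 5 from d4 to d7, 4 from d7 to d10, 5 from d10 to d15 and 6 from d15 to d20. By this measure 32.5% to 37.0% of all genes were higher on d4, d7, d10 and d20, 30.7% to 37.3% lower on d4, d10 and d15, and 51.1% to 79.8% changed between neighbouring timepoints from d1 on. After rescaling, the number lower was 1 on d4 (LIF), 1 on d10 and 1 on d15 (CCL20), and after quantile normalization 1 on d15. From d4 to d7, 1 gene changed under quantile normalization, 1 under edgeR and 1 under DESeq2. From d7 to d10, 0 changed with a pseudocount of 10, and from d10 to d15, 0 after quantile normalization; the cause of these shifts was not tested.

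With each library left out in turn, the number lower was 0 to 1 on d10 (1 without the second column or the third column of d0, or the first or second d10 column) and 0 to 1 on d15 (1 without the second d0 or the first d15 column). The number changed was 1 to 2 from d1 to d4 (2 without the first d1 or the third d1 column, or the first or second d4 column), 0 to 3 from d4 to d7 (0 without the third d7 column, 1 without the second d4 or the third d4 column and 3 without the first d4 column), 0 to 1 from d7 to d10 (0 without the second d7, the third d7 or the third d10 column) and 1 to 2 from d10 to d15 (2 without the first d10 column).

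The changes that turned direction follow. Leaving out libraries, LIF ranged from -0.15 to 0.087 on d1, -0.25 to 0.11 on d7 and -0.094 to 0.14 on d15, CXCL2 from -0.28 to 0.037 on d1 and -0.13 to 0.14 on d10, CXCL3 from -0.11 to 0.21 on d1, and CCL20 from -0.16 to 0.36 on d7. After rescaling, CXCL3 stood at -0.12 on d1 and -0.0039 on d10, and CCL20 at -0.11 on d7. After quantile normalization, CXCL2 stood at 0.22 on d10 and CCL20 at -0.11 on d7. IL8, CXCL2, CXCL3 and CCL20 had 728 to 847 reads over all 21 libraries, against 87152 for IL1A, which limits the precision of their changes.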
